A study of Mus musculus with 6 samples.

Results

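The cytotoxic effector genes described here are 9 genes through which killer T cells act: Ifng, Fasl, Prf1, Gzma, Gzmb, Gzmk, Gzmm, Nkg7, and Klrg1. For each gene, the CpGs inside the gene body or within 10 kb on either side were taken from the mm10 (GRCm38) coordinates of the DNA methylation files, and a CpG was used if it had at least 5 reads in all 6 libraries. This gave 184 CpGs of the 1192344 that met this minimum in the whole series. At least 1 CpG was available for 8 of the 9 genes, and 7 genes had the 3 CpGs needed for a test, among 20250 protein-coding genes tested.

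The DNA came from LN CD8+ T cells of C57BL/6N mice (C57BL/6NCrl in the study's methods), which were 13 weeks old. WT mice, mice heterozygous for a transgene of human STAT5B (genotype hSTAT5B +/T), and mice heterozygous for its mutated form (hSTAT5B N642H +/T, called hSTAT5BN642H) were compared, with 2 libraries per genotype. Both transgenes were driven by a Vav1 vector that is active throughout the hematopoietic system and not in T cells alone, and 1 line was chosen per construct. The cells were enriched with magnetic beads, and the hSTAT5BN642H mice were diseased at sampling. Reduced representation bisulfite sequencing (RRBS) reads bisulfite-converted fragments cut by MspI at CCGG, and bisulfite turns unmethylated cytosines, but not methylated ones, into bases that are read as T. The methylation level of a CpG is the percentage of its reads that are methylated, and the level of a gene is the unweighted mean over the CpGs of its window.

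A killer T cell releases granules that hold perforin, which forms pores in the target membrane, and granzymes, which are serine proteases that enter the target and start its death. It can also kill through Fas ligand, and it secretes IFN-γ. In naive CD8+ T cells these genes are largely silent, and their regulatory DNA is known to lose methylation when the cells become effector or memory cells. STAT5 conveys the IL-2, IL-7, and IL-15 signals that promote this program.

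Each library listed 2597893 to 3445555 CpGs and 43291086 to 67007186 reads on CpGs, with a median of 5 to 11 per CpG. WT replicate 1 had the fewest reads per CpG and stood apart from the other libraries at several windows, so that results that rest on it are also given without it. The window of Cd8a, which encodes 1 chain of the CD8 coreceptor, was methylated at 65.7% in WT replicate 1 and at 29.8% to 42.6% in the other 5 libraries. The window of Cd8b1, which encodes the other chain, had 44.2% and 45.6% in WT, 23.9% and 29.5% in hSTAT5B, and 13.9% and 14.3% in hSTAT5BN642H. Il2rb, the receptor chain that binds IL-2 and IL-15, had 80.4% and 82.7% in WT, 81.2% and 80.7% in hSTAT5B, and 64.0% and 62.4% in hSTAT5BN642H. A level in a mixed sample averages over its cells, so that a shift in cell types and a shift within a type cannot be told apart.

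Sequences are shown for the regions on which the results turn, 5′ to 3′ on the strand of the gene, with GRCm38 coordinates. The promoters are those of RefSeq (GRCm38.p6), with 250 bases before and 50 after the start. Of the 9 promoters listed for 8 of the genes, those of Gzma and Gzmk held a CpG with enough reads. The Gzma promoter is shown because it was the only one with several such CpGs, and the 4 CpGs that were used are in capitals. The Ifng promoter is shown for contrast, since none of its 7 CpGs, all in capitals, had 5 reads in every library. The other stretches hold CpGs at which hSTAT5BN642H was lower than WT, and their capitals mark the CpGs that were used.
Gzma promoter, chr13:113100932-113101231, minus strand: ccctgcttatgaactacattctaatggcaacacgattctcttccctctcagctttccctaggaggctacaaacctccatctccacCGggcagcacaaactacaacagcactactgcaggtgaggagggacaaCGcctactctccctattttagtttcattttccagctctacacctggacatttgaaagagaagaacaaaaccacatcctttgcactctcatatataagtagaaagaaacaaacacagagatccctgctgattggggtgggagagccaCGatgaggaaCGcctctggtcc
Ifng promoter, chr10:118440796-118441095, plus strand: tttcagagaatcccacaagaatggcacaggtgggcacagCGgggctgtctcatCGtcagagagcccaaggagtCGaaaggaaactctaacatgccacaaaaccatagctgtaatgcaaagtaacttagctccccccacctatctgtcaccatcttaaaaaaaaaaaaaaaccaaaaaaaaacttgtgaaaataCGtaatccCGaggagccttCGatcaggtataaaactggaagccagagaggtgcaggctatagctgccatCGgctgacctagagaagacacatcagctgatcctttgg
Gzmm first intron, chr10:79689483-79689602, plus strand: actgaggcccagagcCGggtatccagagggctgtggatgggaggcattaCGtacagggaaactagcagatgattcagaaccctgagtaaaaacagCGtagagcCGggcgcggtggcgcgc
Gzmk window, chr13:113197319-113197380, minus strand: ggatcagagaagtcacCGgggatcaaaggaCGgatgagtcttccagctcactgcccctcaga
Nkg7 exon, chr7:43437610-43437671, plus strand: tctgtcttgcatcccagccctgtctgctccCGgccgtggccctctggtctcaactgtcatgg

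A CCGG was found in 4 of the 9 promoters, or 44.4%, whereas 52.8% of all 32851 RefSeq promoters held one, and the median number of CpGs was 5 against 7. The consensus bound by STAT5, TTCNNNGAA, which reads the same on both strands, was found in 4 of the 9 promoters (those of Ifng, Gzmb, Nkg7, and 1 of the 2 of Gzmm) and in 8.3% of all promoters. A match of these letters is a description of the sequence and not a binding site. None of the 4 promoters with the motif held a CpG with enough reads.

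Most of the 184 CpGs were either nearly fully or nearly not methylated. The mean over the 6 libraries was 80% or more at 96 CpGs, 20% or less at 80, and in between at 8. The low CpGs lay mostly at the starts of neighbouring genes, since 47 were nearest to the start of Cdc34, 13 to that of Etfb, 12 to that of Esm1, and 2 to that of Bsg. The cytotoxic genes themselves had 6 low CpGs, of which 5 surrounded the start of Gzma and 1 lay 7.5 kb upstream of Prf1. As only 78 of the 184 CpGs had the start of a cytotoxic gene as the nearest start, these were also taken alone.

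**Figure D1:**
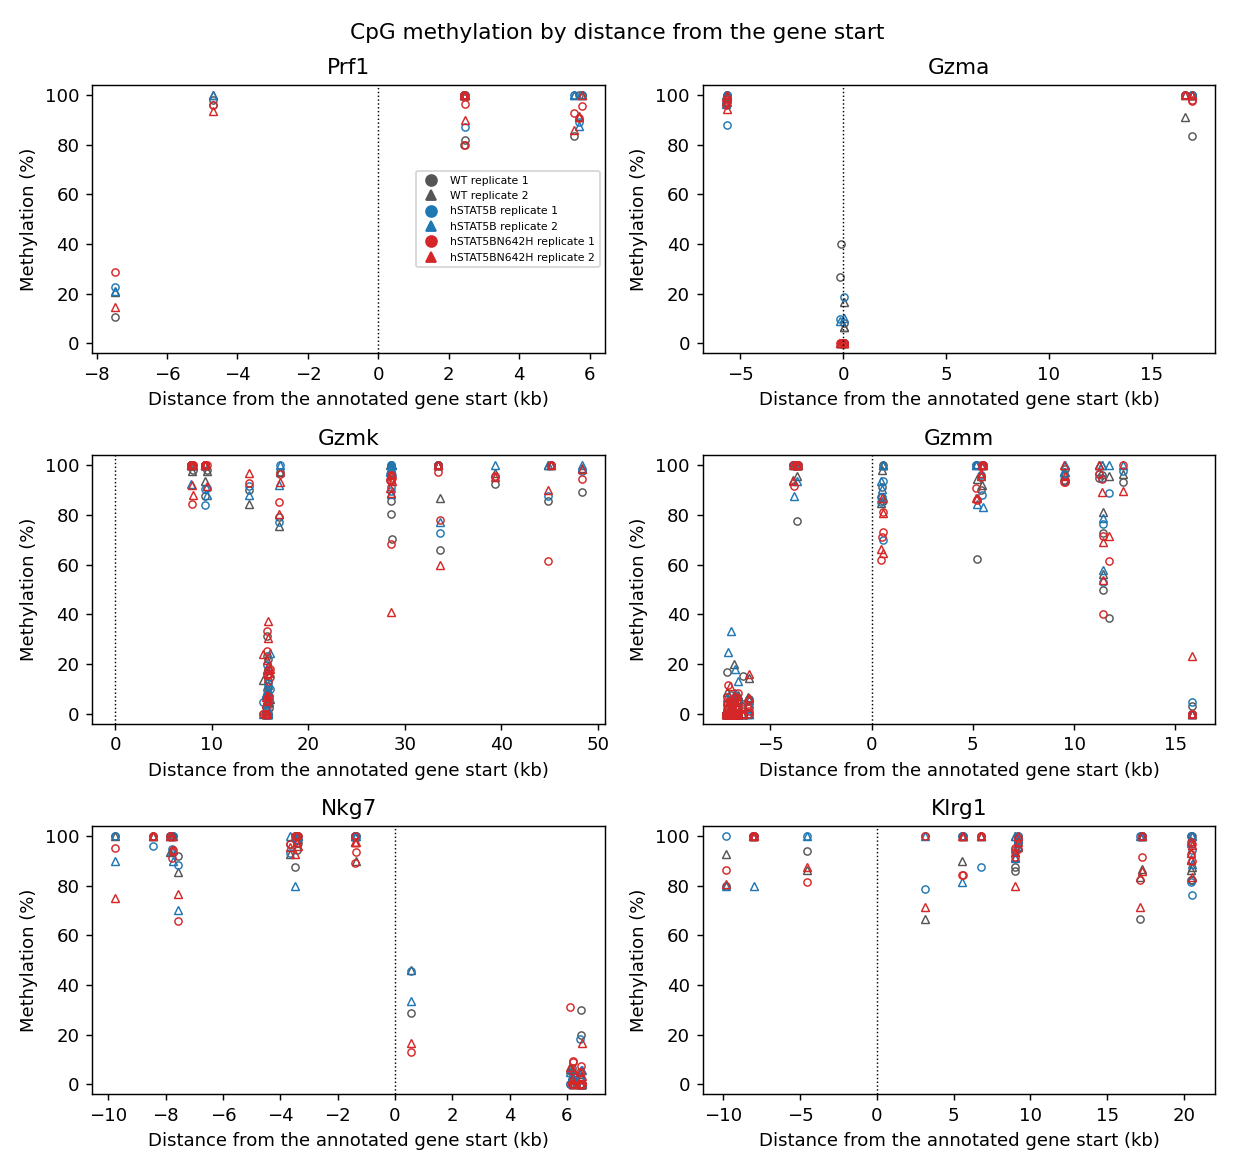
Methylation (%) of each CpG in each library against its distance from the annotated gene start (kb, positive in the direction of transcription), for 6 genes. Circles are replicate 1 and triangles replicate 2, in grey for WT, blue for hSTAT5B, and red for hSTAT5BN642H. Gzma is low at its start and high on both sides, whereas the low CpGs in the windows of Gzmm, Gzmk, and Nkg7 lie near -7 kb, +16 kb, and +6 kb, at the starts of other genes, as do 2 more in the Gzmm window at 15820 and 15836 bp, at the start of Bsg.

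The first comparison asks whether the windows of the cytotoxic genes changed their methylation with the mutated transgene. Averaged over whole windows, which also hold CpGs of neighbouring genes, the differences from WT were small, the largest being -4.18 percentage points for Gzma. Some shorter stretches, described below, differed more. The median difference between hSTAT5BN642H and WT was -1.03 percentage points over the 8 genes with values, beside -0.246 over all gene windows, and no gene passed the test. In the limma model on log2((methylated reads + 1)/(unmethylated reads + 1)), 0 of the 7 tested genes had an adjusted p under 0.05, and the lowest adjusted p was 0.635 for Gzmm. The same model called 0% of all 20250 gene windows and 0% of all CpGs in each of the 4 comparisons, with 1662 genes (8.21%) at an unadjusted p under 0.05 for hSTAT5BN642H against WT. None of the 7 had an unadjusted p under 0.05 in this comparison. A quasi-binomial model also called 0 of the 7, and Fisher's exact test on summed reads, which takes no account of the spread between libraries, called Gzmm, beside 37.9% of all windows. The summed reads of the Gzmm window include those of a CpG island at the start of a neighbouring gene (below). The labels do not say whether the 2 libraries of a genotype came from separate mice, so that p-values measure only the spread between these libraries, which may be technical.

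Ifng encodes IFN-γ, the cytokine that activates macrophages and antigen presentation. Its window lies on chromosome 10 around the gene at 118441046 to 118445892 (ENSMUSG00000055170.4), and 7 of its 223 CpGs were used. The level was 98.1% and 99.1% in WT, 96.2% and 100% in hSTAT5B, and 96.8% and 98.2% in hSTAT5BN642H. All libraries were close to full methylation, and the genotypes overlapped. Of the 7 CpGs, 2 lay 1240 and 1297 bp upstream of the start and 5 in exon sequence from 4175 bp downstream on, and none nearer to the start had enough reads. The difference between hSTAT5BN642H and WT was -1.10 percentage points, with an adjusted p of 0.862 by limma, and it was -0.383 without hSTAT5BN642H replicate 1. A stretch of 4 CpGs in coding and 3′ untranslated sequence, at chr10:118445221-118445264, had 100% and 98.5% in WT and 96.3% and 97.5% in hSTAT5BN642H.

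Fasl, which encodes the ligand of the death receptor Fas, could not be measured in this way. The gene lies on chromosome 1 at 161780689 to 161788495 (ENSMUSG00000000817.10). Its window holds 231 CpGs but only 9 CCGG sites, 18 CpGs were listed in any library, and none reached 5 reads in all 6. When the reads of both libraries of a genotype were added, 3 CpGs had at least 5 reads in each genotype. There 44 of 70 reads were methylated in WT (62.9%), 29 of 69 in hSTAT5B (42.0%), and 41 of 115 in hSTAT5BN642H (35.7%). These sums carry no error between libraries and were added after the data were seen. With a minimum of 3 reads in every library, 3 CpGs were left and the level was 41.7% and 66.9% in WT, 25% and 69.1% in hSTAT5B, and 31.0% and 30.9% in hSTAT5BN642H. The hSTAT5BN642H libraries were below both WT libraries but within the range of hSTAT5B, and the log2 ratio against WT was -0.99 ± 0.678 (SE), with an adjusted p of 0.726 by limma.

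Prf1 encodes perforin. The gene lies on chromosome 10 at 61297833 to 61304680 (ENSMUSG00000037202.6), and 9 of the 314 CpGs in its window were used. The level was 83.7% and 90.2% in WT, 88.3% and 89.9% in hSTAT5B, and 86.7% and 86.1% in hSTAT5BN642H. The WT libraries differed more from each other than the genotypes did, and without WT replicate 1 the difference between hSTAT5BN642H and WT went from -0.599 to -3.86 percentage points. The gene body CpGs were highly methylated, whereas a single CpG 7465 bp upstream stayed low in all 6 libraries, with 10.5% and 20.5% in WT, 22.9% and 21.3% in hSTAT5B, and 28.6% and 14.8% in hSTAT5BN642H. The largest difference without overlap was at a coding CpG, 2465 bp downstream of the start (chr10:61300298). There all 13 and 18 WT reads were methylated, 20 of 23 and 15 of 15 in hSTAT5B, and 26 of 27 and 18 of 20 in hSTAT5BN642H. The limma test of this CpG gave an adjusted p of 0.908.

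**Figure D2:**
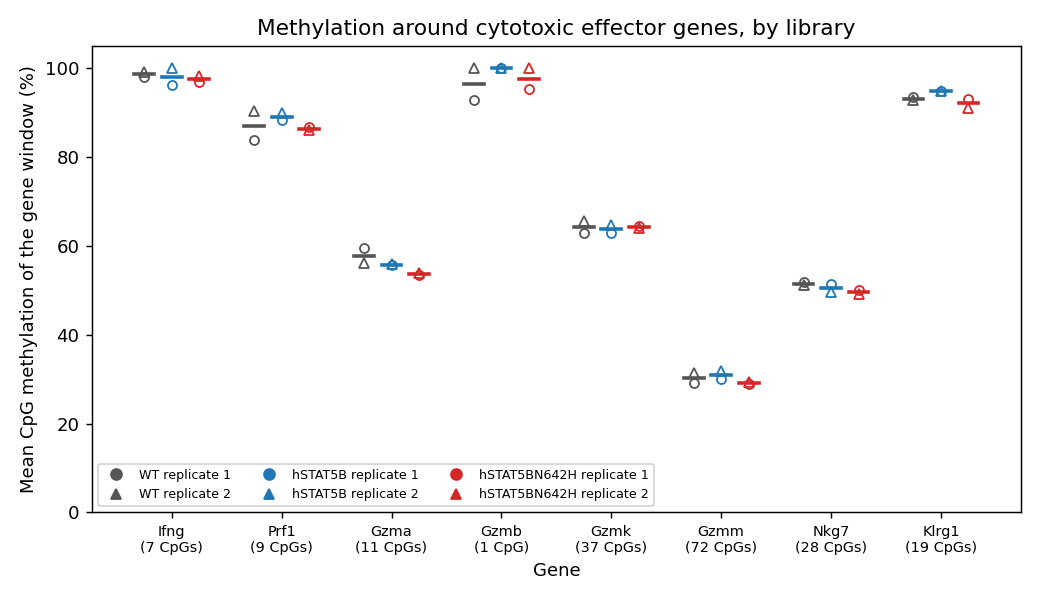
Mean CpG methylation (%) of each gene window in each library, by gene, with the number of CpGs used. Open symbols are single libraries (circle, replicate 1, and triangle, replicate 2), and bars are genotype means. The genes differ from 30.1% for Gzmm to 98.1% for Ifng on average, while the genotypes of 1 gene lie within a few percentage points.

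Gzma encodes granzyme A, a tryptase and 1 of the most abundant granule proteases. It was the only cytotoxic gene whose start was read by several CpGs, and that start was almost free of methylation in all 3 genotypes, most of all in hSTAT5BN642H. The gene lies on the minus strand of chromosome 13 at 113093825 to 113100981 (ENSMUSG00000023132.8), and 11 of the 249 CpGs in its window were used. The 5 CpGs at the start, from 164 bp upstream to 52 bp downstream (chr13:113100929-113101145), had a mean of 15% and 6% in WT, 5.64% and 3.82% in hSTAT5B, and 0% in both hSTAT5BN642H libraries. The hSTAT5BN642H libraries were lower than both WT libraries and both hSTAT5B libraries. The difference between hSTAT5BN642H and WT was -10.5 percentage points, and -6 without WT replicate 1.

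No methylated read was seen at these 5 CpGs in hSTAT5BN642H, where the sums were 109 and 59 reads against 69 and 112 in WT. Neighbouring CpGs can lie on the same read, so that these sums count some reads more than once. Single CpGs had 8 to 40 reads in hSTAT5BN642H, and 0 of 40 reads allows a level of up to 7.5%, whereas 0 of 8 allows up to 37.5%. WT replicate 1 had 6 of 15 methylated reads (40%, Wilson 95% interval, 19.8% to 64.2%) at 117 bp upstream and 4 of 15 (26.7%) at 164 bp upstream. At these 2 CpGs WT replicate 2 had 0 of 29 and 0 of 35 methylated reads. The hSTAT5B libraries had 0 of 29 and 0 of 10 at 117 bp upstream, and 3 of 31 and 1 of 11 at 164 bp upstream. At the 3 CpGs inside the first exon, 29, 39, and 52 bp downstream, WT replicate 1 had 0 of 13, 1 of 12, and 0 of 14, and WT replicate 2 had 1 of 15, 1 of 15, and 3 of 18. hSTAT5B had 0 of 26 and 0 of 20, 0 of 26 and 0 of 18, and 5 of 27 and 2 of 20 methylated reads there.

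Taken over the gene and 2 kb on either side, which left these 5 CpGs, the Gzma log2 ratio was -3.11 ± 0.645 (SE) in hSTAT5BN642H against WT, with an unadjusted p of 0.00331 and an adjusted p of 0.488 by limma. This ratio was not refitted without WT replicate 1, which moved the level difference at these CpGs to -6 percentage points. The CpGs farther away were methylated in every library. A stretch of 3 CpGs from 5630 bp upstream on had 94.8% to 99.03%. The mean level of the whole window was 59.4% and 56.2% in WT, 55.7% and 55.8% in hSTAT5B, and 53.3% and 53.9% in hSTAT5BN642H, so that hSTAT5BN642H overlapped with neither other genotype and the difference from WT was -4.18 percentage points. Without WT replicate 1 this difference was -2.55. The test on summed reads, in which the deeply read upstream CpGs count most, gave the other sign (log2 ratio 0.245 ± 0.264, adjusted p = 0.830).

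Gzmb encodes granzyme B, which cleaves caspases in the target cell. It had only 1 CpG with enough reads of the 113 in its window, at chr14:56268979, 6719 bp upstream of the start. The gene lies on chromosome 14 at 56258838 to 56262260 (ENSMUSG00000015437.5). The level was 92.9% and 100% in WT, 100% in both hSTAT5B libraries, and 95.2% and 100% in hSTAT5BN642H, with 7 to 21 reads. No difference was detectable at this depth, and the promoter was not read.

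Gzmk encodes granzyme K, which is typical of memory CD8+ T cells. The annotated gene spans 113171608 to 113225908 of chromosome 13 (ENSMUSG00000042385.14) because of 1 long transcript, whereas the RefSeq gene ends at 113180965 and the other annotated starts lie near it. Of its 773 CpGs, 37 were used, all of them in introns. The level was 62.9% and 65.5% in WT, 62.9% and 64.8% in hSTAT5B, and 64.5% and 64.0% in hSTAT5BN642H. The genotypes overlapped, with a difference of 0.0728 percentage points between hSTAT5BN642H and WT and an adjusted p of 0.869 by limma. With the RefSeq gene, an alternative chosen after the data were seen, 4 CpGs were left and the difference was -3.42. The CpG in the RefSeq promoter, at chr13:113181078, had 6 of 7 and 9 of 9 methylated reads in WT, 7 of 8 and 9 of 9 in hSTAT5B, and 8 of 13 and 9 of 10 in hSTAT5BN642H.

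A single CpG in this window stood apart. At chr13:113197349, in the second intron of the long transcript 12310 bp from the nearest protein-coding start, every read was methylated in WT (42 of 42 and 63 of 63) and in hSTAT5B (57 of 57 and 70 of 70). In hSTAT5BN642H only 50 of 73 (68.5%) and 31 of 76 (40.8%) were methylated. The Wilson 95% intervals were 57.1% to 78.0% and 30.4% to 52.0%, which cover counting error only, as RRBS reads carry no molecular identifiers here. The other 4 CpGs of the same stretch had 88.9% to 96.1% in hSTAT5BN642H and 70.4% to 100% in the other genotypes. The difference was -45.4 percentage points against WT, the largest of all 184 CpGs. It had an unadjusted p of 8.1e-06 and an adjusted p of 0.664 over all CpGs by limma. Bisulfite reads show an unmethylated cytosine and a thymine in the DNA alike, and this was not tested.

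The Gzmk window also spans the start of Esm1, which encodes an endothelial proteoglycan. At the 12 CpGs there (chr13:113209928-113210341) the level was 9.31% and 7.14% in WT, 5.05% and 6.16% in hSTAT5B, and 12.8% and 12.4% in hSTAT5BN642H. Here hSTAT5BN642H was above both other genotypes, and hSTAT5B was below WT.

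Gzmm encodes granzyme M, a protease that cuts after methionine or leucine and is best known from NK cells. In the first intron of the gene hSTAT5BN642H was less methylated than either other genotype. The gene lies on chromosome 10 at 79689020 to 79695261 (ENSMUSG00000054206.2), and 72 of the 507 CpGs in its window were used, of which 41 lay in a CpG island at the start of Cdc34. The level of the whole window was 29.1% and 31.3% in WT, 29.9% and 31.8% in hSTAT5B, and 29.0% and 29.4% in hSTAT5BN642H. The CpG island had 0.6% to 2.9% in every library. The 9 CpGs inside Gzmm had 90.8% and 96.1% in WT, 91.2% and 94.7% in hSTAT5B, and 84.4% and 85.5% in hSTAT5BN642H with a difference of -8.48 percentage points from WT.

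This difference came from the first intron. The 5 coding CpGs 5180 to 5490 bp downstream of the start overlapped between the genotypes. They had 90.5% and 96.4% in WT, 96.8% and 93.6% in hSTAT5B, and 94.4% and 94.1% in hSTAT5BN642H, with a difference of 0.796 percentage points from WT. At the 4 CpGs 478 to 566 bp downstream of the start (chr10:79689498-79689586) the mean was 91.1% and 95.7% in WT, 84.0% and 96.0% in hSTAT5B, and 71.8% and 74.7% in hSTAT5BN642H. Both hSTAT5BN642H libraries were below all 4 others, and the difference from WT was -20.1 percentage points. The first of these CpGs, at 478 bp, had 61 of 70 and 83 of 98 methylated reads in WT, 46 of 54 and 88 of 94 in hSTAT5B, and 73 of 118 and 51 of 77 in hSTAT5BN642H. This CpG lies in sequence that the reference genome marks as repeat, and the placement of its reads was not tested. The CpG at 512 bp had 91.4% and 97.9% in WT, 87.3% and 90.4% in hSTAT5B, and 71.2% and 87.0% in hSTAT5BN642H. The CpG at 558 bp had 9 of 9 methylated reads in both WT libraries and 13 of 16 and 11 of 17 in hSTAT5BN642H, but also 7 of 10 in hSTAT5B replicate 1. The CpGs share reads and are not independent of each other.

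**Figure D3:**
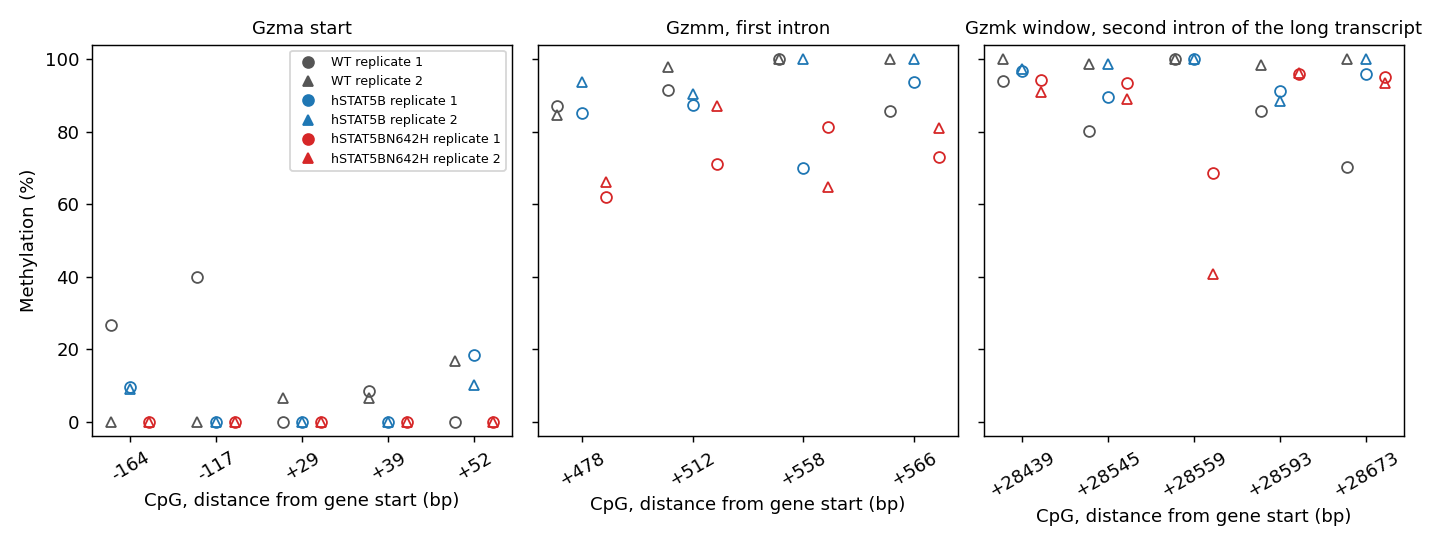
Methylation (%) of single CpGs in each library at the Gzma start, in the first intron of Gzmm, and in the Gzmk window, by distance from the gene start (bp). Circles are replicate 1 and triangles replicate 2. The hSTAT5BN642H libraries (red) are at 0% at the 5 Gzma CpGs, at 61.9% and 66.2% at the first Gzmm CpG, and at 68.5% and 40.8% at the Gzmk CpG where the other 4 libraries are at 100%.

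None of these Gzmm differences passed the correction. For the whole window the log2 ratio was -0.39 ± 0.174 (SE) in hSTAT5BN642H against WT, with an unadjusted p of 0.0658 and an adjusted p of 0.635 by limma. This ratio sums reads, including those of the CpG island at Cdc34, with 653 and 1052 in WT and 1482 and 1032 in hSTAT5BN642H. With CpG islands left out, the log2 ratio was -0.33 ± 0.296, with an unadjusted p of 0.306 and an adjusted p of 0.776. For the gene body alone it was -1.52 ± 0.358, with an unadjusted p of 0.0065 and an adjusted p of 0.538. The 3 single CpGs named had adjusted p-values of 0.779, 0.752, and 0.763. Cd8b1 and Il2rb moved in the same direction with genotype (above), and their part in the result was not tested. Downstream, 4 CpGs from 11238 bp on had 78.4% and 84.4% in WT and 75.6% and 78.1% in hSTAT5BN642H.

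Nkg7 encodes a membrane protein of cytotoxic granules that is needed for their release. The gene is short and lies on chromosome 7 at 43437073 to 43438249 (ENSMUSG00000004612.9), and 28 of the 290 CpGs in its window were used. The level was 51.9% and 51.1% in WT, 51.4% and 49.5% in hSTAT5B, and 50.0% and 49.1% in hSTAT5BN642H. The hSTAT5BN642H libraries were below both WT libraries, with a difference of -1.94 percentage points, and the adjusted p was 0.881 by limma. Only 1 CpG lay inside the gene, in coding sequence 567 bp downstream of the start (chr7:43437640). It had 2 of 7 and 6 of 13 methylated reads in WT, 5 of 11 and 3 of 9 in hSTAT5B, and 3 of 23 and 1 of 6 in hSTAT5BN642H, that is 13.04% and 16.7%. The hSTAT5BN642H libraries were the lowest at this thinly read CpG, with an adjusted p of 0.821. The 13 CpGs before Etfb (chr7:43443191-43443589) had means of 0.476% to 8.27% over the 6 libraries, whereas 3 CpGs 1369 to 1387 bp upstream of Nkg7 had 94.2% to 100%.

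Klrg1 encodes an inhibitory lectin-like receptor that marks terminal effector CD8+ T cells. The gene lies on chromosome 6 at 122270596 to 122282882 (ENSMUSG00000030114.8), and 19 of the 320 CpGs in its window were used. The level was 93.4% and 92.8% in WT, 94.9% in both hSTAT5B libraries, and 93.0% and 91.1% in hSTAT5BN642H. All 19 CpGs had a mean of 84.0% or more, and none lay within 1 kb of the start. hSTAT5B was above both other genotypes, with a difference of 1.77 percentage points from WT and of -2.83 for hSTAT5BN642H against hSTAT5B, and with adjusted p-values of 0.932 and 0.607. Over the alternatives these differences were 0.312 to 2.07 and -3.79 to -0.438, and with at least 10 reads the log2 ratio of hSTAT5BN642H to hSTAT5B was 0.05 ± 0.255 in place of -0.45. The CpG at chr6:122265751, in sequence marked as repeat, differed by 25 and -23.1 percentage points in these 2 comparisons. It had 20 of 30 and 5 of 6 methylated reads in WT, 28 of 28 and 11 of 11 in hSTAT5B, and 42 of 51 and 20 of 28 in hSTAT5BN642H. With 6 reads in WT replicate 2, it is not used when at least 10 are required. Between hSTAT5BN642H and WT, the largest difference without overlap was at chr6:122265618, downstream of the gene. There every read of the other 4 libraries was methylated, with 13 to 23 reads each, against 21 of 23 and 6 of 7 in hSTAT5BN642H. This CpG also lies in sequence that the reference genome marks as repeat.

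Over single CpGs, more were lower than higher in hSTAT5BN642H, among those of the cytotoxic genes and among all CpGs. Both hSTAT5BN642H libraries were below both WT libraries at 25 of the 184 CpGs (13.6%), beside 12.6% of all CpGs, and above both at 10 (5.43%), beside 8.89% of all CpGs. With a difference of at least 10 percentage points as well, 11 CpGs were lower, beside 5.06% of all CpGs, and 1 was higher, beside 3.88% of all CpGs. Of the 11, 6 belonged to the Gzmm window and 3 to that of Nkg7. Those of Gzmm include the 4 CpGs of the first intron, which share reads, and chr10:79700445, which is nearest to the start of Bsg. In the Nkg7 window, chr7:43427327 and chr7:43429510 are nearest to the start of Lim2, another gene. Without WT replicate 1, the counts were 52 lower (28.3%, beside 23.5% of all CpGs) and 24 higher (13.04%, beside 19.6%). Of the 184 CpGs, 9 had an unadjusted p under 0.05, which is 4.89% and less than the 6.28% over all CpGs. Fisher's exact test on summed reads called 3 (1.63%), namely the Gzmk CpG and the first 2 in the Gzmm intron, beside 0.855% of all CpGs. Over whole windows, Gzma and Nkg7 were lower without overlap, 2 of 7 beside 25.3% of all windows, and no window was higher, beside 15.7%.

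The comparison of hSTAT5B with WT asks what the transgene without the mutation did. It shares its WT libraries with the comparison above. The median difference over the genes was 0.14 percentage points, beside 0.118 over all gene windows. hSTAT5B was below WT without overlap at 12 of the 184 CpGs (6.52%), beside 8.24% of all CpGs, and above at 8 (4.35%), beside 9.41%. Among the windows, Gzma was lower and Klrg1 higher, beside 14.6% and 18.7% of all windows. The limma model called 0 of the 7 genes, none at an unadjusted p under 0.05 (5.71% of all windows), and adjusted p-values were 0.932 or higher. The quasi-binomial model called 0 and Fisher's exact test 2, Gzmk and Nkg7, beside 24.7% of all windows. At the Gzmm intron hSTAT5B was 84.0% and 96.0%, a range that covered both WT libraries.

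The comparison of hSTAT5BN642H with hSTAT5B sets the mutated transgene against the unmutated one. Line and disease differ along with the mutation and cannot be told apart from it. The median difference was -1.91 percentage points, beside -0.352 over all gene windows. Lower without overlap were Prf1, Gzma, Gzmm, and Klrg1, which are 4 of the 7 windows beside 27.8% of all windows, and none was higher, beside 13.5%. Over single CpGs, 22 (12.0%) were lower, beside 13.2% of all CpGs, and 12 (6.52%) higher, beside 8.2%. Gzmm had the lowest unadjusted p, 0.0465, with a log2 ratio of -0.43 ± 0.174 and an adjusted p of 0.549 by limma, and was the only 1 of the 7 under 0.05 before adjustment, beside 9% of all windows. With CpG islands left out, the Gzmm log2 ratio was -0.43 ± 0.296, with an unadjusted p of 0.201 by limma. The quasi-binomial model called 0 of the 7, and Fisher's exact test called 4 (Prf1, Gzma, Gzmk, and Gzmm), beside 40.1% of all windows. In summed reads Prf1 and Gzma were higher in hSTAT5BN642H, by 8.10 and 8.34 percentage points, against the direction of their mean levels, and Gzmk and Gzmm differed by -5.83 and -6.88. The limma log2 ratios of Prf1 and Gzma were likewise positive, 0.63 ± 0.508 and 0.62 ± 0.264, with adjusted p-values of 0.725 and 0.560. When hSTAT5BN642H was set against both other genotypes together, the median difference was -1.38 percentage points, beside -0.289, and Gzmm again had the lowest adjusted p, 0.483.

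**Figure D4:**
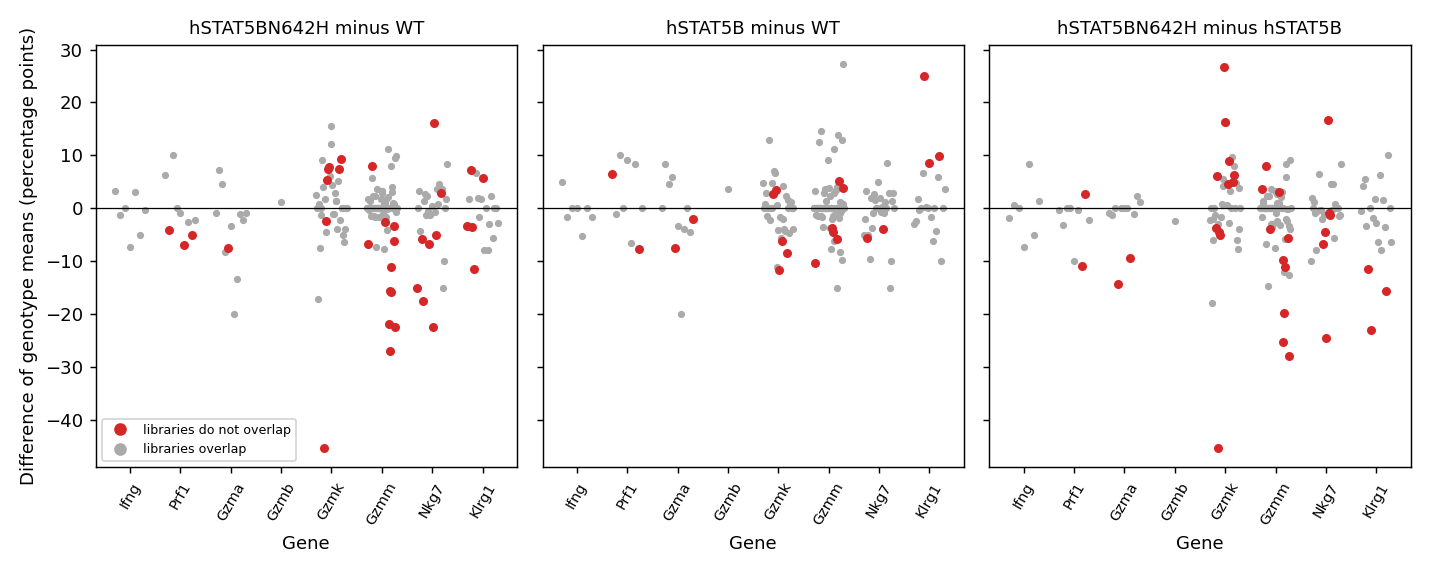
Difference of genotype means (percentage points) at each of the 184 CpGs, by gene and, within a gene, in order of position, for 3 comparisons. Red points are CpGs at which the libraries of the genotypes do not overlap, and grey points the others. The lowest point is the Gzmk CpG at -45.4, and the Gzmm intron gives a group between -15.6 and -27.0 in the comparison of hSTAT5BN642H with WT.

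Other genes of the cytotoxic program, in 5 lists with 45 genes, of which 44 were found in the annotation (Vamp7 was not matched) and 34 had enough CpGs, were compared in the same way. No gene passed the test in any of the 4 comparisons. Against WT, hSTAT5BN642H was lower without overlap at 7 of the 34 windows (20.6%, beside 25.3% of all windows) and higher at 1 (2.94%, beside 15.7%), and the median difference was -0.268 percentage points. Among granzymes and granule contents, the 2 largest differences were in Gzme, with 92.8% and 89.8% in WT and 86.5% and 86.4% in hSTAT5BN642H (-4.82), and in Gzmg, which had a single CpG (-4.92). The genes of the granzyme cluster on chromosome 14 are close copies of each other, so that the assignment of reads among them is uncertain. In the list of granule release, Rab27a (-1.31) and Unc13d (-1.23), which dock and prime granules at the membrane, had the largest differences of that list.

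Among cytokines and chemokines, Ccl4 had 83.3% and 72.2% in WT and 65.7% and 68.8% in hSTAT5BN642H (-10.5, 4 CpGs), and Ccl3, its neighbour, differed by 4.67 in the other direction. Among receptors, Klrd1 and Klrk1 shared 1 CpG, at 33.3% in WT replicate 1 and 0% in all other libraries, so that their difference of -16.7 rested on that library. Among regulators, Ifngr1 had 48.1% and 91.3% in WT and 69.5% and 36.4% in hSTAT5BN642H, a spread as large as its difference of -16.8, and Stat4 differed by -1.13. T-bet (Tbx21), Eomes, and Runx3, the transcription factors that switch on these genes, had differences of 0.155, -0.163, and 0.457 percentage points and were named after their values were seen.

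Markers of other cells were read in the same way. Over the 4 tested NK cell markers of 6, the mean level was 73.5% to 79.4% per library, and the defining gene Klrb1c had 98.96% to 100% on 2 CpGs. Ncr1, another defining NK cell gene, had 100% and 97.2% in WT, 94.05% and 93.8% in hSTAT5B, and 84.5% and 96.0% in hSTAT5BN642H on 3 CpGs. Over the 6 myeloid markers the mean was 65.5% to 67.1%. Over the 7 T cell markers it was 60.3% and 58.1% in WT, 58.6% and 56.7% in hSTAT5B, and 56.1% and 55.8% in hSTAT5BN642H. Of these 7 windows, 4 were lower in hSTAT5BN642H than in WT without overlap, beside 25.3% of all windows. None of the 7 passed the test, and the lowest adjusted p in this comparison was 0.726 by limma. Over the 3 tested CD4 T cell markers of 4, the mean was 47.9% to 51.3%. The fourth, Ctla4, had 2 CpGs and was not tested. Its level was 91.7% and 86.1% in WT, 91.7% and 97.9% in hSTAT5B, and 79.4% and 73.1% in hSTAT5BN642H. Cd79b, a part of the B cell receptor that was named after its values were seen, had 37.0% and 41.7% in WT, 37.1% and 46.4% in hSTAT5B, and 50.1% and 46.7% in hSTAT5BN642H. Other genes of the B cell list were lower in hSTAT5BN642H than in WT, so that Cd79b does not stand for that list. Over the 4 tested markers of antigen-experienced CD8+ T cells of 5, the mean was 68.5% and 74.6% in WT, 71.3% and 69.7% in hSTAT5B, and 64.0% and 63.6% in hSTAT5BN642H. This mean includes Il2rb (above), which differed most between hSTAT5BN642H and WT, by -18.3 percentage points. Cxcr3 differed by -6.7, Ly6c2 by -5.4, and Cd44 by -0.325. Over the 5 markers of naive cells the mean was 49.9% to 54.1%. Their part in the results for Gzma, Gzmm, and Nkg7 was not tested.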

How the data were processed

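RRBS was performed on genomic DNA from enriched CD8+ T cells. The authors' notes name Trimmomatic and BSMAP, with reads aligned to GRCm38. The deposited files give methylated and all reads per CpG as counts, with both strands combined, plus a score that the authors derived from the methylated share. The score matched the counts in every row and was not used further. Genes were those of GENCODE M21. CpG islands were called by the UCSC rule. Gene windows with at least 3 CpGs and single CpGs, at a minimum of 5 reads in every library, were tested with limma 3.58.1 (R 4.3.3) on log2((methylated + 1)/(unmethylated + 1)), in a model that held the 3 genotypes. Benjamini-Hochberg adjustment, at 0.05, ran over all windows or all CpGs. The code was tested on simulated data. Intervals are Wilson 95% intervals, and a limit for a level of 0 is 3 reads of the total. Both cover counting error only. Python 3.11.15, numpy 2.4.6, pandas 2.3.3, and scipy 1.17.1 were used.

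The genes and lists were chosen with earlier results of these data known. All 9 genes are described. The CpGs named are, per gene, those within 1 kb of the start (at most 3) and the 1 with the largest difference between hSTAT5BN642H and WT without overlap of libraries. Stretches are neighbouring CpGs at most 200 bp apart. List genes are named if they passed the test and otherwise the 2 with the largest differences. The alternatives were other minimum reads, windows, offsets, models, and numbers of CpGs, leaving out deep CpGs or CpG islands, a replicate block, and leaving out each library. RefSeq windows, a minimum of 1 read, reads added per genotype, and counts and the Gzma start without WT replicate 1 were chosen after the data were seen. The list of B cell markers is not reported here.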

Additional observations from a re-analysis of the deposited data

How the results depend on the processing

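The number of genes called stayed at 0 in the 4 comparisons under all alternatives except 2. The quasi-binomial model called 3, 4, and 13 genes for hSTAT5BN642H against WT, against hSTAT5B, and against both, and none of the 9 genes. Fisher's exact test on summed reads called 7674 genes for hSTAT5BN642H against WT, 5000 for hSTAT5B against WT, 8121 for hSTAT5BN642H against hSTAT5B, and 8721 against both, and 10199, 2304, 7965, and 17667 CpGs in the same order, as its construction ignores the spread between libraries. Same-numbered replicates did not deviate together (correlations of -0.0532 to 0.0447 over genes), and the fit with the replicate block called 0.

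The median difference over the genes, in percentage points, was -1.94 for hSTAT5BN642H against WT in gene bodies alone, beside -0.2045 over all gene bodies. It was -2.13 over CpGs nearest to the genes' own starts. For hSTAT5BN642H against hSTAT5B it was -0.859 with at least 10 reads, -2.96 with 2 kb flanks or gene bodies alone, and -2.76 over the nearest CpGs. Over all genes the median in this comparison was -0.2728 with 2 kb flanks and -0.2999 in gene bodies alone. For hSTAT5BN642H against both, the median over the cytotoxic genes was -2.55 over the nearest CpGs. For hSTAT5B against WT that median was 1.22 with RefSeq windows. Leaving out each library gave -1.86 to -0.248, -0.518 to 1.504, -2.43 to -1.40, and -1.84 to -0.688 in the order hSTAT5BN642H against WT, hSTAT5B against WT, hSTAT5BN642H against hSTAT5B, and against both. The cause of these shifts was not tested. Without WT replicate 1, 52 CpGs of the genes were lower and 24 higher, since fewer samples have to be separated. Of 500 values of single genes under alternatives, 110 moved by more than the replicate SD. With summed reads, the differences between hSTAT5BN642H and WT became 5.62 for Prf1, 3.13 for Gzma, and -6.14 for Gzmm.

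Depth and the placement of MspI sites limit what was read. The promoters of Ifng, Gzmb, Gzmm, Nkg7, Prf1, and Fasl held no CpG with 5 reads in every library, so that nothing is known of them here.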

Other observations

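The place of the few differences varied among the genes. The smallest adjusted p for any of the 184 CpGs in any comparison was 0.398, for the Gzmk CpG at chr13:113197349 in hSTAT5BN642H against both other genotypes together. A coding CpG of Gzmm, 5180 bp downstream of the start (chr10:79694200), was fully methylated in the 4 WT and hSTAT5B libraries, with 8 to 17 reads each, and had 39 of 43 and 20 of 23 methylated reads in hSTAT5BN642H. The stretch of 5 coding CpGs that begins with it did not differ in this way. Its level was 90.5% and 96.4% in WT and 94.4% and 94.1% in hSTAT5BN642H. The next CpG, at chr10:79694244, differed from WT by 8.03 percentage points in the other direction.

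Of the 80 CpGs of low methylation, 13 lay before the start of Etfb. There 1 CpG (chr7:43443191) was the only one of the 184 that was higher in hSTAT5BN642H without overlap by at least 10 percentage points, with 0% and 6.25% in WT and 31.2% and 7.14% in hSTAT5BN642H on 12 to 16 reads.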
